A study of Mus musculus with 18 samples.

Results

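The genes described here encode 10 transcription factors of the macrophage lineage, chosen by name for known roles, with earlier results of these data known. They are Spi1, Fli1 and Ets2 of the ETS family, Mitf, Tfe3 and Tfec of the MiT/TFE family, Runx1, and the nuclear receptors Pparg, Rara and Rxra. All 10 were among the 11164 genes of the deposited table, and all 10 passed the filter on low values that left 9934 genes for testing (a group mean of at least 1 RPKM), Rxra only through the unstimulated groups. ETS factors bind DNA around a GGAA core, and PU.1, the product of Spi1, opens the enhancers on which the myeloid programme is built. MiT/TFE factors bind E-box and M-box sequences and run lysosomal, osteoclast and mast cell genes. Runx1 pairs with CBFB and acts with PU.1 at genes such as Csf1r, while PPARG and RARA bind DNA as partners of RXRA and answer to lipids and to retinoic acid.

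RNA was sequenced from macrophages grown out of bone marrow of C57BL/6J mice that lacked BAFF (BAFF KO), lacked APRIL (APRIL KO) or were wild type (WT). Cells received 10 ng/ml lipopolysaccharide (LPS), the bacterial ligand of Toll-like receptor 4, for 4 h or were left unstimulated, and the labels of all groups also carry day 16 of gestation. Each genotype had 2 LPS libraries (17 and 18 for BAFF KO, 20 and 21 for APRIL KO, 14 and 15 for WT) and 1 unstimulated library (16, 19 and 13). Every library was present as 2 columns with neighbouring index numbers, and these were averaged into 1 value per library. Whether the 2 LPS libraries of a genotype stem from different mice or dishes is not stated in the labels, and the spread behind the p-values may therefore be technical. The BAFF gene was not analysed here, and no check of the BAFF KO label by its target is given.

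Libraries held 5121833 to 6020780 reads in listed genes. All 8 macrophage markers were read in every group, at a summed level of 4527 to 5211 RPKM (reads per kilobase of gene, scaled to the column's reads) in LPS libraries and 6904 to 7603 RPKM in unstimulated ones. The 12 neutrophil markers, all listed, summed to 1354 to 2722 RPKM with LPS and 2776 to 5877 RPKM without, highest in the unstimulated BAFF KO library. Skeletal muscle markers, 19 of 20 listed, summed to 29.5 to 80.2 RPKM in knockout libraries and 287 to 415 RPKM in WT libraries. Stromal markers, 7 of 8 listed, stood at 486 RPKM in APRIL KO library 21 and 245 RPKM in WT library 14, against 11.5 to 146 RPKM elsewhere. None of the 7 adipocyte markers was listed. The part of these cells in the results below was not tested, and in bulk RNA fewer cells of a type and less RNA per cell cannot be told apart.

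The 4 promoters below belong to the members that rose most and fell most with LPS. They are the 250 bases before the annotated start, from RefSeq on GRCm38.p6, written along the gene's strand. These starts need not match the GENCODE spans given below. By those spans the Ets2 and Rxra windows lie inside the gene, the Pparg window partly inside, and the Tfec window just before it. Promoters of 8 of the 10 members were in that table. Capitals mark exact matches, on either strand, to the ETS core GGAA, the PU box GAGGAA (which contains the core), the E-box CACGTG, the M-box CATGTG, the RUNX site TGTGGT, the AP-1 site TGANTCA or the nuclear receptor site AGGTCA.
Tfec, minus strand, chr6:16898442-16898691: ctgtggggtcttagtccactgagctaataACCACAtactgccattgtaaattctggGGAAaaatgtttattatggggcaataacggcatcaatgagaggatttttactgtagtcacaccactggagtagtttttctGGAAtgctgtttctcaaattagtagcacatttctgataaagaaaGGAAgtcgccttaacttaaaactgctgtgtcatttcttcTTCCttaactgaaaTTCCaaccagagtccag
Ets2, plus strand, chr16:95702157-95702406: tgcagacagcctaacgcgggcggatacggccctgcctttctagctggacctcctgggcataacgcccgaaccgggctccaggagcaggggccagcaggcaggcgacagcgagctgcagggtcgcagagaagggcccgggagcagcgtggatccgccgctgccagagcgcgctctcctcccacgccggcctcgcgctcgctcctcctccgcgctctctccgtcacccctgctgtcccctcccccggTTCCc
Pparg, plus strand, chr6:115360894-115361143: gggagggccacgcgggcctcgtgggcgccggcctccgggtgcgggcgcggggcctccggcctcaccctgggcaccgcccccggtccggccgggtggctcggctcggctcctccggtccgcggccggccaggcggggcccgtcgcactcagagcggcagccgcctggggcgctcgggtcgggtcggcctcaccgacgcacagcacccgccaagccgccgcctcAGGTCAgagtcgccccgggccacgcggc
Rxra, plus strand, chr2:27676951-27677200: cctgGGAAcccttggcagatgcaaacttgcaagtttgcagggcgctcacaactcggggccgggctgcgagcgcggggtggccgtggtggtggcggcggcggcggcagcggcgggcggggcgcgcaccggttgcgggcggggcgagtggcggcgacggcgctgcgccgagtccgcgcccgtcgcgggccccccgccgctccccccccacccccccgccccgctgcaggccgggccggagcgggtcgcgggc
The Tfec window held 5 ETS cores and 1 RUNX site, the Ets2 and Rxra windows 1 ETS core each, and the Pparg window 1 nuclear receptor site. GGAA is found in 93.4% of the 32851 mouse promoter windows of this length, TGTGGT in 14% and AGGTCA in 14%, so these matches describe the windows and no more. Bases G and C made up 39.2% of the Tfec window, against 71.6% for Ets2, 82.4% for Pparg and 81.2% for Rxra, where the median of all windows was 52.4% (quartiles 45.2% and 61.2%). Pparg has 3 annotated starts and Rxra 2, of which the first along the table is printed, and read totals per gene do not show which start was used.

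LPS cells were first set against unstimulated cells. Averaged over the genotypes, 4 members rose (Tfec, Ets2, Mitf and Spi1) and 6 fell (Pparg, Rxra, Fli1, Tfe3, Rara and Runx1), by limma on log2(RPKM + 1) with a Benjamini-Hochberg adjusted p below 0.05. The same test called 80.2% of all 9934 genes, 18.1% higher and 62.1% lower, so that being called is nothing particular to the members. The median difference of the members was -0.68 on the log2 scale and that of all genes tested -0.44. RPKM is relative to a column's total of reads. After scaling the libraries by the median ratio over genes, the median of all genes was -0.02 and that of the members -0.31, with 3084 genes higher and 2990 lower, and each member's value on that footing is given beside the first. Differences on the log2(RPKM + 1) scale understate changes of genes at low levels. How many of all genes had LPS and unstimulated libraries without overlap was not counted. Where such separation is described below, it is not read as particular to the members.

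**Figure D1:**
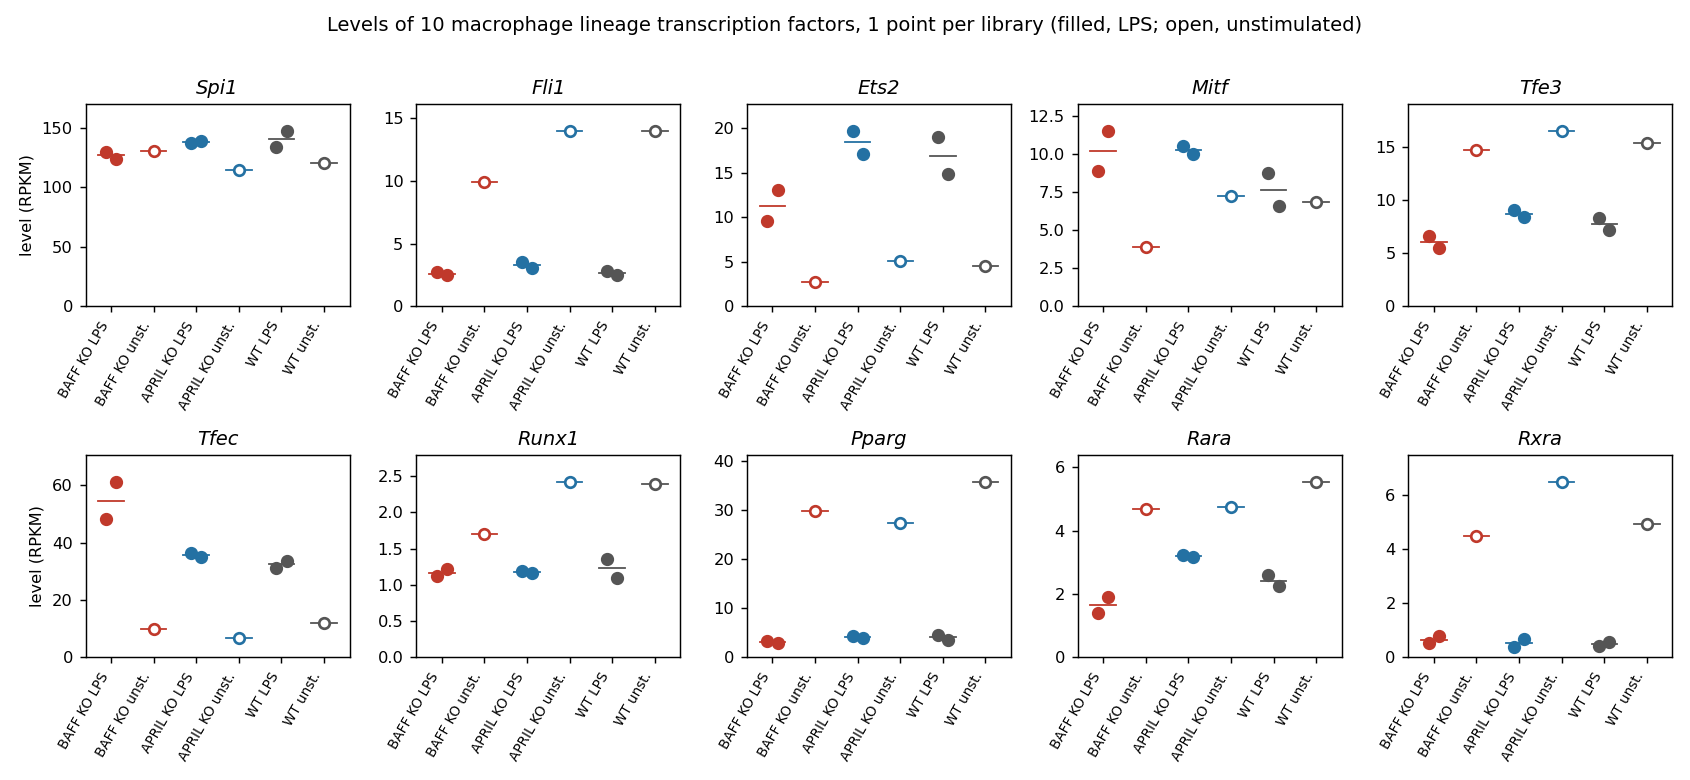
Level in RPKM (linear axes from 0) of each of the 10 members in the 6 groups. Each point is 1 library, filled with LPS and open without, and the line is the group mean. Tfec and Ets2 are high and Pparg, Rxra and Fli1 low in all 6 LPS libraries, without overlap with the 3 unstimulated ones. Tfe3, Runx1 and Rara are also lower with LPS without overlap. The share of all genes separated in this way was not counted.

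Among ETS factors, Spi1 (ENSMUSG00000002111, chr2:91082390-91115756, plus strand, mm10) was by far the highest member, at 135 RPKM averaged over LPS libraries and 122 RPKM over unstimulated libraries. Its level was 130 and 124 RPKM in BAFF KO LPS libraries, 137 and 139 in APRIL KO LPS libraries and 134 and 147 in WT LPS libraries. Without LPS it was 130 RPKM in BAFF KO, 114 in APRIL KO and 121 in WT. The BAFF KO difference of -0.04 (adjusted p = 0.76) became a called 0.43 after median ratio scaling (adjusted p = 0.014). The Spi1 difference was 0.27 in APRIL KO, a call lost in 9 of 18 alternatives, and 0.22 in WT, not called. Its highest value over the alternatives was 0.81 in APRIL KO, 0.76 in WT and 0.43 in BAFF KO. In BAFF KO the unstimulated library lay just above both LPS libraries, and in the other genotypes it lay below them. The averaged difference of 0.15 (SE 0.06, limma adjusted p = 0.045) only just passed. For Spi1 it became 0.67 after median ratio scaling (adjusted p = 3.9e-05) and turned to -0.03 under quantile normalization (adjusted p = 0.62). The Spi1 call was also lost when library 13, 15, 17, 18, 19, 20 or 21 was left out, with adjusted p of 0.053 to 0.29.

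Fli1 (ENSMUSG00000016087, chr9:32422204-32542861, minus strand), an ETS factor of megakaryocytes, blood stem cells and endothelium, fell in every genotype. It stood at 2.73 and 2.50 RPKM in BAFF KO LPS libraries, 3.52 and 3.08 in APRIL KO and 2.86 and 2.53 in WT. The unstimulated levels were 9.95 RPKM in BAFF KO, 14 in APRIL KO and 13.96 in WT. No LPS library reached any unstimulated one. Fli1 fell by 1.81 on the log2 scale on average (SE 0.10, adjusted p = 2.6e-06), the 184th largest fall among the genes tested, and the difference was -1.35 after median ratio scaling. Megakaryocyte markers, 4 of 6 listed, summed to 383 to 507 RPKM with LPS and 420 to 594 RPKM without.

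Ets2 (ENSMUSG00000022895, chr16:95702075-95721051, plus strand), a factor activated by growth factor and CSF1 signalling through ERK, rose. LPS libraries held 9.53 and 13 RPKM in BAFF KO, 19.7 and 17.1 in APRIL KO and 18.95 and 14.8 in WT. In unstimulated cells Ets2 was at 2.78 RPKM in BAFF KO, 5.13 in APRIL KO and 4.50 in WT. All 6 LPS libraries lay above all 3 unstimulated ones, and BAFF KO was the lowest genotype in both states. The averaged Ets2 difference was 1.68 (SE 0.13, adjusted p = 1.3e-05) and 2.11 after median ratio scaling. By genotype it was 1.68 in BAFF KO, 1.66 in APRIL KO and 1.69 in WT (SE 0.22 each).

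The wider ETS family moved both ways. Of 16 tested genes of a list of 18, with Spi1, Fli1 and Ets2 included, 6 rose and 5 fell (8 and 4 after median ratio scaling), with a median of -0.04. The repressor Etv6 rose by 1.52 and Etv3, another ETS repressor, by 1.17, while Erf, which represses ETS targets, fell by 1.42 and Elf2 by 1.03. Spic, the relative of PU.1 needed for red pulp macrophages, was at 17.2 ± 5.79 RPKM with LPS (SD, n = 6) and 8.51 ± 6.19 RPKM without (SD, n = 3), an averaged difference of 1.07 (limma adjusted p = 7.8e-05). Spib and Ets1 did not pass the test, at -0.25 for Spib (0.038 under quantile normalization) and -0.23 for Ets1 (0.074 after median ratio scaling).

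**Figure D2:**
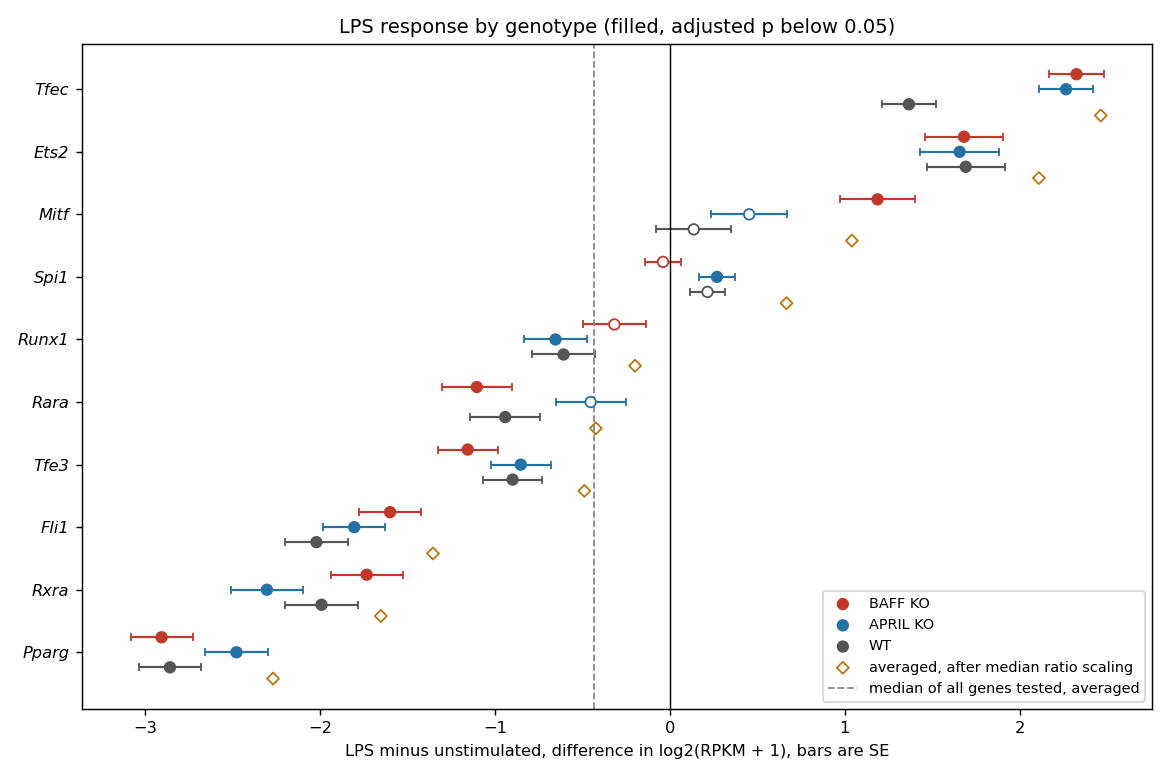
LPS minus unstimulated difference in log2(RPKM + 1) for each member, by genotype, with SE bars from the fit over all genes; filled points have a limma adjusted p below 0.05. Diamonds give the averaged difference after median ratio scaling and the dashed line the median of all genes tested (-0.44); the members spread from Pparg at -2.75 to Tfec at 1.99 on average.

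The MiT/TFE family changed its make-up with LPS. Tfec (ENSMUSG00000029553, chr6:16833373-16898441, minus strand), the member confined mostly to myeloid cells in the mouse, rose furthest. It was read at 48.2 and 61.3 RPKM in BAFF KO LPS libraries, 36.5 and 35.0 in APRIL KO and 31.3 and 33.7 in WT. Unstimulated BAFF KO cells had 10.0 RPKM, APRIL KO 6.64 and WT 11.98. The groups were far apart, and BAFF KO libraries were the highest under LPS. Averaged over genotypes Tfec rose by 1.99 (SE 0.09, adjusted p = 7.1e-07), the 345th largest rise of the genes tested, and by 2.46 after median ratio scaling. By genotype it rose by 2.33 in BAFF KO, 2.27 in APRIL KO and 1.37 in WT (SE 0.16 each).

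Mitf (ENSMUSG00000035158, chr6:97807052-98021349, plus strand), the factor of melanocytes, mast cells and osteoclasts, had a smaller rise. Its LPS levels were 8.90 and 11.5 RPKM in BAFF KO, 10.5 and 10.0 in APRIL KO and 8.78 and 6.58 in WT, against unstimulated levels of 3.89 RPKM in BAFF KO, 7.22 in APRIL KO and 6.83 in WT. WT LPS library 15 lay below unstimulated WT, so the WT groups overlapped. On average Mitf rose by 0.59 (SE 0.12, adjusted p = 0.0027), and by 1.04 after median ratio scaling. The rise passed in BAFF KO at 1.19 (adjusted p = 0.0025), whereas the difference was 0.45 in APRIL KO (adjusted p = 0.10) and 0.14 in WT (adjusted p = 0.60). Without the unstimulated BAFF KO library, number 16, the averaged Mitf value was 0.30 and no longer called (adjusted p = 0.11). Over the alternatives the Mitf difference ran from 0.99 to 1.58 in BAFF KO, 0.38 to 0.93 in APRIL KO and -0.05 to 0.61 in WT. The BAFF KO call held in all 18. A call was gained in 4 of 18 for APRIL KO, median ratio scaling among them, and in 1 of 18 for WT. Mast cell and basophil markers, 6 of 7 listed, summed to 62.5 to 91.6 RPKM with LPS and 62.6 to 101 RPKM without.

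Tfe3 (ENSMUSG00000000134, chrX:7762560-7775202, plus strand), which enters the nucleus on starvation to drive lysosomal genes, fell. It measured 6.66 and 5.52 RPKM in BAFF KO LPS libraries, 9.07 and 8.41 in APRIL KO and 8.37 and 7.22 in WT, against unstimulated levels of 14.7 RPKM in BAFF KO, 16.6 in APRIL KO and 15.4 in WT. The groups did not overlap. The averaged Tfe3 difference was -0.97 (SE 0.10, adjusted p = 5.5e-05) and -0.49 after median ratio scaling (adjusted p = 0.0037). On that scaling the fall was called in BAFF KO but not in APRIL KO (-0.35, adjusted p = 0.15) or WT (-0.39, adjusted p = 0.11).

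Tfeb, the remaining relative and the best known driver of lysosome formation, fell by 2.47 (SE 0.10, adjusted p = 4.1e-07), to 0.946 to 1.57 RPKM in the 6 LPS libraries against 10.4 to 11.5 RPKM in the 3 unstimulated ones. As a share of the 4 genes' summed RPKM, Tfec made up 63.2% to 76.7% with LPS and 15.95% to 26.2% without. Tfeb made up 1.74% to 2.41% with LPS and 25.2% to 26.9% without, and Tfe3 6.91% to 16.9% with LPS and 33.6% to 39.8% without. Mitf made up 13.6% to 18.4% with LPS and 9.95% to 17.4% without. Shares rest on the gene lengths behind the RPKM, which for Tfec come to about 1772 bases where the annotation has 5594 exonic bases, so they are tied to that choice. Flcn, which keeps MiT/TFE factors in the cytoplasm through the Rag GTPases, fell by 2.07 (adjusted p = 2.0e-06). Of 9 tested genes on the list of the family and its regulators, members included, 2 rose and 7 fell (3 and 5 after median ratio scaling, median -0.97). The 2 that rose were the members Tfec and Mitf.

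**Figure D3:**
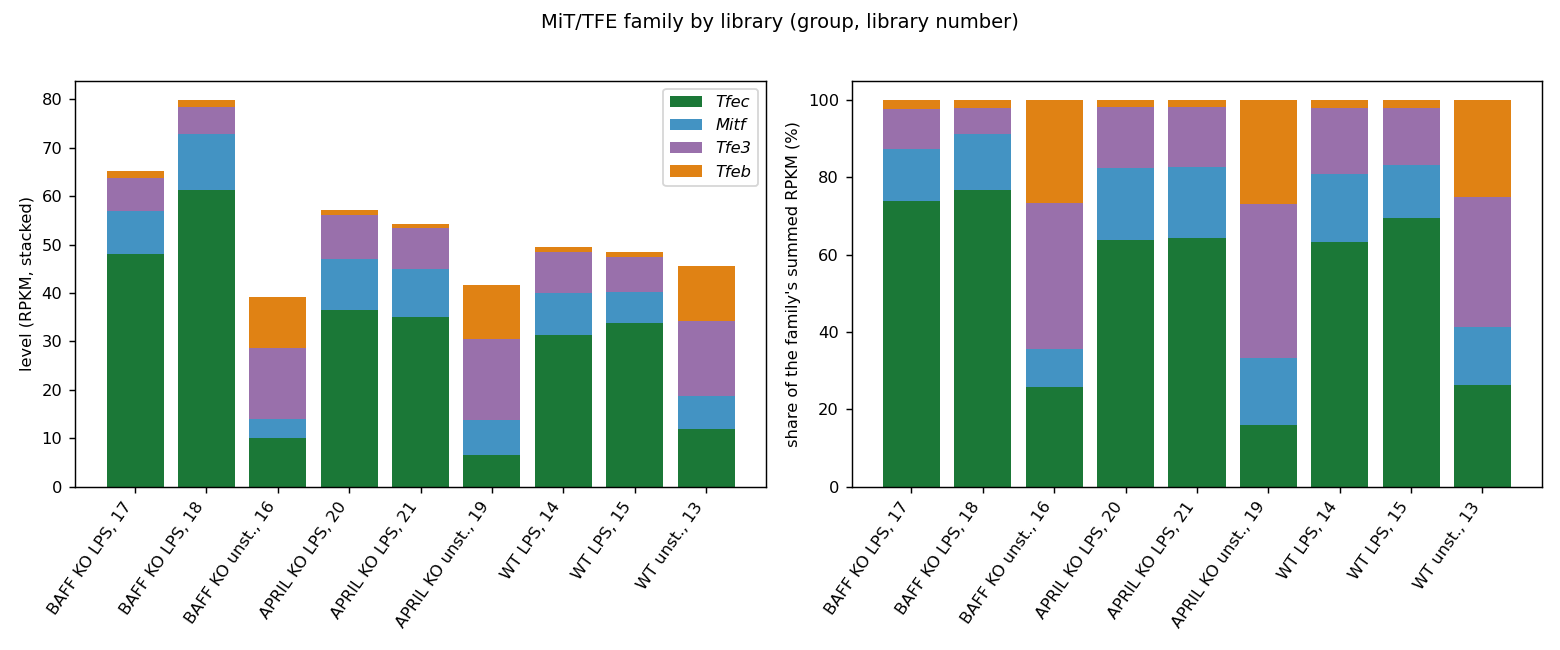
MiT/TFE family in the 9 libraries, as stacked RPKM (left) and as percent of the family's sum (right). Tfec is the largest share in all 6 LPS libraries (63.2% to 76.7%), and Tfeb shrinks to 1.74% to 2.41% of the sum there.

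Runx1 (ENSMUSG00000022952, chr16:92601466-92826149, minus strand), the blood stem cell factor, was the second lowest member under LPS. It was read at 1.119 and 1.22 RPKM in BAFF KO LPS libraries, 1.19 and 1.16 in APRIL KO and 1.36 and 1.10 in WT, on 70 to 96 reads each. Unstimulated levels were 1.70 RPKM in BAFF KO, 2.42 in APRIL KO and 2.39 in WT. The LPS libraries all lay below the unstimulated ones. Runx1 fell by 0.53 on average (SE 0.10, adjusted p = 0.0019), near the median of all genes, and the value of -0.20 after median ratio scaling was not called (adjusted p = 0.15), nor was -0.15 under quantile normalization (adjusted p = 0.25). By genotype the difference was -0.32 in BAFF KO (adjusted p = 0.16), -0.65 in APRIL KO (adjusted p = 0.015) and -0.61 in WT (adjusted p = 0.021, and 0.071 without library 15). No genotype kept a Runx1 call after median ratio scaling. The antisense gene Gm26626 shares 106 of the 12025 exonic bases of Runx1, and the kits named in the labels do not settle whether strand was kept. Its relatives were lower still. Runx2 was at 0.238 to 0.474 RPKM with LPS and 0.329 to 0.748 RPKM without, and Runx3 at 0.370 to 0.699 RPKM with LPS and 0.370 to 0.557 RPKM without. The partner Cbfb fell by 0.61, a call that was lost after median ratio scaling.

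Of the members, the nuclear receptor gene Pparg fell furthest. Pparg (ENSMUSG00000000440, chr6:115360951-115490399, plus strand), which senses fatty acid derivatives and directs lipid handling and alveolar macrophage identity, stood at 3.32 and 2.90 RPKM in BAFF KO LPS libraries, 4.28 and 3.96 in APRIL KO and 4.58 and 3.63 in WT. Unstimulated cells had 29.8 RPKM in BAFF KO, 27.5 in APRIL KO and 35.8 in WT. Every unstimulated library was several-fold above every LPS library. Pparg fell by 2.75 (SE 0.10, adjusted p = 2.4e-07), the 15th largest fall of the 9934 genes, and the difference was -2.27 after median ratio scaling. As a pooled share of all reads, LPS libraries held 0.115 times as much Pparg as unstimulated ones.

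Rxra (ENSMUSG00000015846, chr2:27676440-27762957, plus strand), the shared partner of PPARG and RARA, dropped to the lowest level of the members under LPS. It had 0.527 and 0.785 RPKM in BAFF KO LPS libraries, 0.388 and 0.662 in APRIL KO and 0.418 and 0.572 in WT, on 10 to 23 reads each. Without LPS it had 4.49 RPKM in BAFF KO, 6.49 in APRIL KO and 4.94 in WT. No libraries overlapped. The averaged Rxra difference was -2.01 (SE 0.12, adjusted p = 3.2e-06) and -1.65 after median ratio scaling. Its LPS group means of 0.656 RPKM in BAFF KO, 0.525 in APRIL KO and 0.495 in WT lay under the filter, so Rxra was tested because of the groups in which it is high, and a difference was built into that choice. As a pooled share of all reads, which needs no pseudocount, LPS libraries held 0.0931 times as much as unstimulated ones. The relative Rxrb fell less, by 1.14, so that Rxra made up 7.89% to 13.8% of the RPKM of the pair with LPS and 29.7% to 34.7% without.

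Rara (ENSMUSG00000037992, chr11:98927818-98974942, plus strand), the retinoic acid receptor of myeloid cells, stood at 1.397 and 1.91 RPKM in BAFF KO LPS libraries, 3.23 and 3.17 in APRIL KO and 2.59 and 2.24 in WT. The unstimulated levels were 4.67 RPKM in BAFF KO, 4.75 in APRIL KO and 5.54 in WT. All LPS libraries were lower, BAFF KO most. The averaged Rara difference was -0.83 (SE 0.12, adjusted p = 0.00029) and -0.42 after median ratio scaling (adjusted p = 0.015). Rara fell in BAFF KO by 1.10 (adjusted p = 0.0025) and in WT by 0.94 (adjusted p = 0.0051), while the APRIL KO difference of -0.45 was not called (adjusted p = 0.081) and was 0.07 under quantile normalization. The WT call was lost after median ratio scaling (adjusted p = 0.086).

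On the list of 23 nuclear receptors, with Pparg, Rxra and Rara included, 1 of 17 tested genes rose and 14 fell (4 and 9 after median ratio scaling, median -0.67). The orphan receptor Nr4a3 rose by 1.77, to 3.94 ± 0.462 RPKM with LPS (SD, n = 6) against 0.4485 ± 0.1275 RPKM without (SD, n = 3). Its unstimulated level lay under the filter, so Nr4a3 was tested because of the LPS groups, and a rise was built into that choice. Nr1h3, the oxysterol receptor LXR alpha, fell by 0.94 and Ppard by 0.67. Of 11 tested coregulators 10 fell and none rose (4 lower and 1 higher after median ratio scaling), with Ncoa4, which also carries ferritin to lysosomes, at -1.04. The list of other myeloid factors had 4 rises and 7 falls of 20 tested (9 and 3 after median ratio scaling). There the lymphoid and myeloid zinc finger factor Ikzf1 rose by 2.10 and Irf8, which directs monocyte development, by 1.11, while Lyl1, a blood stem cell factor, fell by 2.26.

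Ordered by level, the members ran Spi1, Tfec, Ets2, Mitf, Tfe3, Pparg, Fli1, Rara, Runx1 and Rxra under LPS, at 135, 41.0, 15.5, 9.39, 7.54, 3.78, 2.87, 2.42, 1.19 and 0.559 RPKM. Unstimulated, the order was Spi1, Pparg, Tfe3, Fli1, Tfec, Mitf, Rxra, Rara, Ets2 and Runx1, at 122, 31.0, 15.6, 12.6, 9.55, 5.98, 5.31, 4.99, 4.14 and 2.17 RPKM. Neighbours whose libraries overlapped under LPS were Ets2 with Mitf, Mitf with Tfe3, Pparg with Fli1, and Fli1 with Rara. In unstimulated libraries every step from Fli1 down to Ets2 overlapped, and the others did not. Order between genes rests on the gene lengths behind the RPKM, about 1772 bases for Tfec where the annotation has 5594 exonic bases. Tfe3 came to 5420 of 9261 bases and Pparg to 2119 of 2953, while Runx1 and Rara came to more than annotated. On other lengths the order, that of Tfec above all, could differ.

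Textbook targets of the members, listed with earlier results of these data known, were counted in the same test. Of 24 tested PU.1 targets 7 rose and 13 fell (11 and 5 after median ratio scaling; median -0.36). The high-affinity Fc receptor gene Fcgr1 rose by 2.19 and the LPS coreceptor gene Cd14 by 1.66, while Csf1r, the CSF1 receptor gene, fell by 1.18, to 248 ± 7.58 RPKM with LPS (SD, n = 6) against 563 ± 55.2 RPKM without (SD, n = 3). Of 22 tested MiT/TFE targets 2 rose and 19 fell (5 and 10 after median ratio scaling; median -0.71). The risers were Acp5, tartrate-resistant acid phosphatase, by 2.72 and the lysosomal chloride transporter gene Clcn7 by 0.79, while the proton pump subunit gene Atp6v0d2 fell by 1.28 and the sialidase gene Neu1 by 1.17.

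Of 15 tested PPARG targets 2 rose and 12 fell (4 and 6 after median ratio scaling; median -0.64). The mitochondrial carrier gene Ucp2 fell by 1.16 and the lipid droplet gene Plin2 by 1.08, whereas Olr1, a receptor for oxidised lipoprotein, rose by 2.11 and Acadl, of fatty acid oxidation, by 0.50. Only 4 retinoic acid targets could be tested, of which none rose and 2 fell (1 and 1 after median ratio scaling). Dhrs3, which reduces retinaldehyde, fell by 2.11, to 8.42 ± 1.19 RPKM with LPS (SD, n = 6) against 39.5 ± 4.23 RPKM without (SD, n = 3). Rdh10, which makes retinaldehyde, fell by 0.49 as deposited, a call lost after median ratio scaling.

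**Figure D4:**
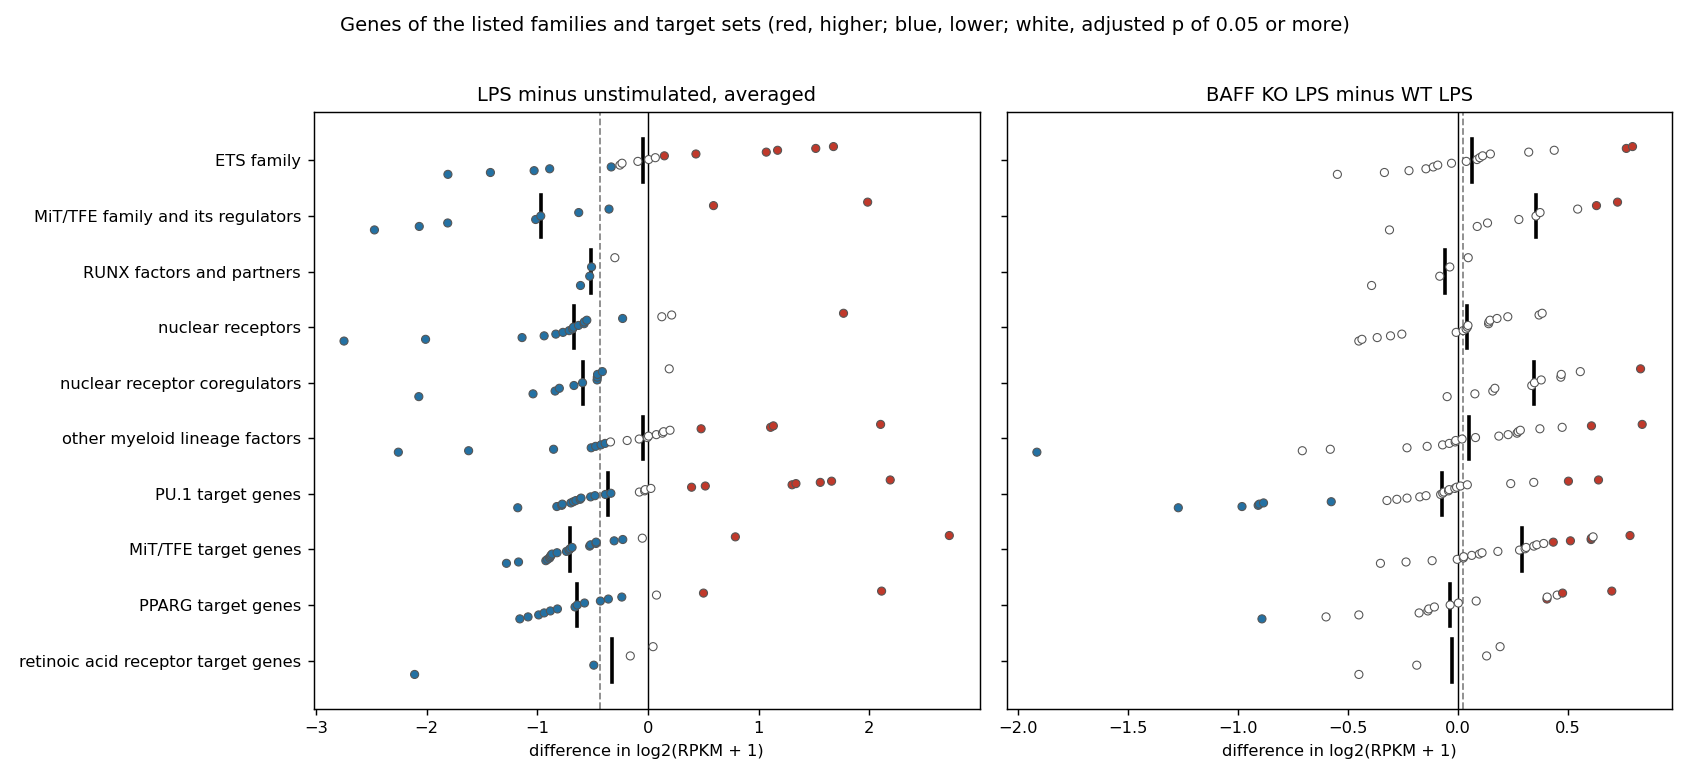
Differences in log2(RPKM + 1) for tested genes of each list, members included, averaged over genotypes (left, LPS minus unstimulated) and under LPS (right, BAFF KO minus WT). Thick bars are list medians and the dashed line the median of all genes tested. On the left most lists lie at or below the -0.44 of all genes, and on the right the called genes include 5 higher and 0 lower MiT/TFE targets. Among these 5 are Acp5 and Atp6v0d2, whose calls were lost in 10 and 11 alternatives.

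Within each genotype, 8 members were called. BAFF KO had 3 higher and 5 lower, where 59.8% of all genes were called (16% higher, 43.8% lower). APRIL KO also had 3 higher and 5 lower, where 62.1% were called (14.4% higher, 47.8% lower). WT had 2 higher and 6 lower, where 60.3% were called (13.7% higher, 46.7% lower). After median ratio scaling the members split into 4 higher and 5 lower in BAFF KO, 4 and 3 in APRIL KO, and 3 and 3 in WT. The balance of all genes turned over with it, to 2326 higher and 1723 lower in BAFF KO, 2345 and 1814 in APRIL KO, and 2286 and 1686 in WT. Whether a response differed from that of WT was tested directly. None of the members passed for BAFF KO, where 0.443% of all genes did (0.221% in each direction), and none for APRIL KO, where 0 genes did by limma. At an unadjusted p below 0.05, 2141 genes and 2 members (Mitf and Tfec) passed for BAFF KO, and 337 genes and 1 member (Tfec) for APRIL KO. With voom weights on recovered reads, an alternative chosen after seeing the data, 599 genes passed the adjusted test for BAFF KO, Mitf among them (1.29, adjusted p = 0.038), and 0 for APRIL KO.

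The BAFF KO response exceeded that of WT by 1.05 for Mitf (SE 0.31, adjusted p = 0.13) and by 0.96 for Tfec (SE 0.22, adjusted p = 0.089). Tfec in APRIL KO exceeded WT by 0.90 (SE 0.22, unadjusted p = 0.0039, adjusted p = 0.998 by limma). Each of these rests on 1 unstimulated library per genotype: library 16 had the lowest Mitf and library 19 the lowest Tfec. The 2 knockout comparisons share the WT libraries. Ets2 and Pparg showed differences of -0.01 and -0.05 for BAFF KO, with SE of 0.32 and 0.25.

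The second comparison set genotypes against each other under LPS. In BAFF KO against WT only Tfec was called among the members, where 8.34% of all genes were called (3.99% higher, 4.35% lower). With 48.2 and 61.3 RPKM in BAFF KO and 31.3 and 33.7 RPKM in WT, Tfec averaged 54.7 ± 9.29 RPKM in BAFF KO and 32.5 ± 1.75 RPKM in WT (SD, n = 2 each). The libraries did not overlap, and the difference was 0.72 (SE 0.13, limma adjusted p = 0.016). It kept its direction in every alternative run (0.55 to 0.90), but the call was lost without library 14 (adjusted p = 0.085), 15 (0.063) or 18 (0.088) and with the lower index columns alone (0.10). Osteoclast markers, 5 of 8 listed, summed to 108 and 140 RPKM in BAFF KO and 98.1 and 84.3 RPKM in WT, muscle markers to 47.6 and 63.4 RPKM in BAFF KO and 415 and 293 RPKM in WT, and neutrophil markers to 2722 and 2343 RPKM in BAFF KO and 1354 and 1715 RPKM in WT. Of the tested neutrophil markers 7 of 12 were called higher and of the muscle markers 13 of 15 lower. Their part in the result was not tested.

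The other members gave values without a call. Ets2 was 9.53 and 13 RPKM in BAFF KO and 18.95 and 14.8 RPKM in WT under LPS, without overlap, a difference of -0.55 (SE 0.18, adjusted p = 0.11). Rara differed by -0.37 (adjusted p = 0.21), Tfe3 by -0.31 (adjusted p = 0.21) and Pparg by -0.31 (adjusted p = 0.23), each with BAFF KO libraries below both WT libraries. How many of all genes had libraries apart in this way was not counted, so the separation is not read as particular to these members. Mitf differed by 0.37 (adjusted p = 0.23). Fli1, Runx1, Spi1 and Rxra lay between -0.15 and 0.15.

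In APRIL KO against WT under LPS no member was called by limma, also none at an unadjusted p below 0.05, where 0.211% of all genes were called after adjustment (0.0101% higher, 0.201% lower) and 1539 genes passed unadjusted. With voom weights 84 genes and no member were called. Mitf, at 10.5 and 10.0 RPKM in APRIL KO and 8.78 and 6.58 RPKM in WT, had the largest member difference, 0.39 (SE 0.18, adjusted p = 0.34). Rara followed at 0.30 (SE 0.16, adjusted p = 0.41). The libraries of both genes did not overlap between the groups, but the share of all genes for which this holds was not counted.

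Set against APRIL KO, BAFF KO under LPS had Tfec higher by 0.59 (SE 0.13, limma adjusted p = 0.040), the only member called, where 5.54% of all genes were (2.48% higher, 3.06% lower). That call was lost without library 14, 15, 17, 18, 20 or 21 (adjusted p of 0.053 to 0.18), and under quantile normalization (adjusted p = 0.051), where Rara was called lower instead (-0.70, adjusted p = 0.044). Rara was 1.397 and 1.91 RPKM in BAFF KO, on 35 and 48 reads, and 3.23 and 3.17 RPKM in APRIL KO, on 85 and 82 reads. The Rara libraries did not overlap, but the share of all genes for which this holds was not counted. The Rara difference of -0.67 was not called (SE 0.16, limma adjusted p = 0.059). The Ets2 difference of -0.67 (adjusted p = 0.082) and the Tfe3 difference of -0.46 (adjusted p = 0.11) had the same sign. With voom weights, chosen after seeing the data, Rara, Ets2 and Tfe3 were called as well (adjusted p = 0.027, 0.022 and 0.046). That alternative called 837 of 9934 genes, 404 higher and 433 lower. Against its paralog, Rara made up 30.4% and 34.4% of the summed Rara and Rarg RPKM in BAFF KO LPS libraries, 53.1% and 54.0% in APRIL KO and 45.2% and 47.8% in WT.

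**Figure D5:**
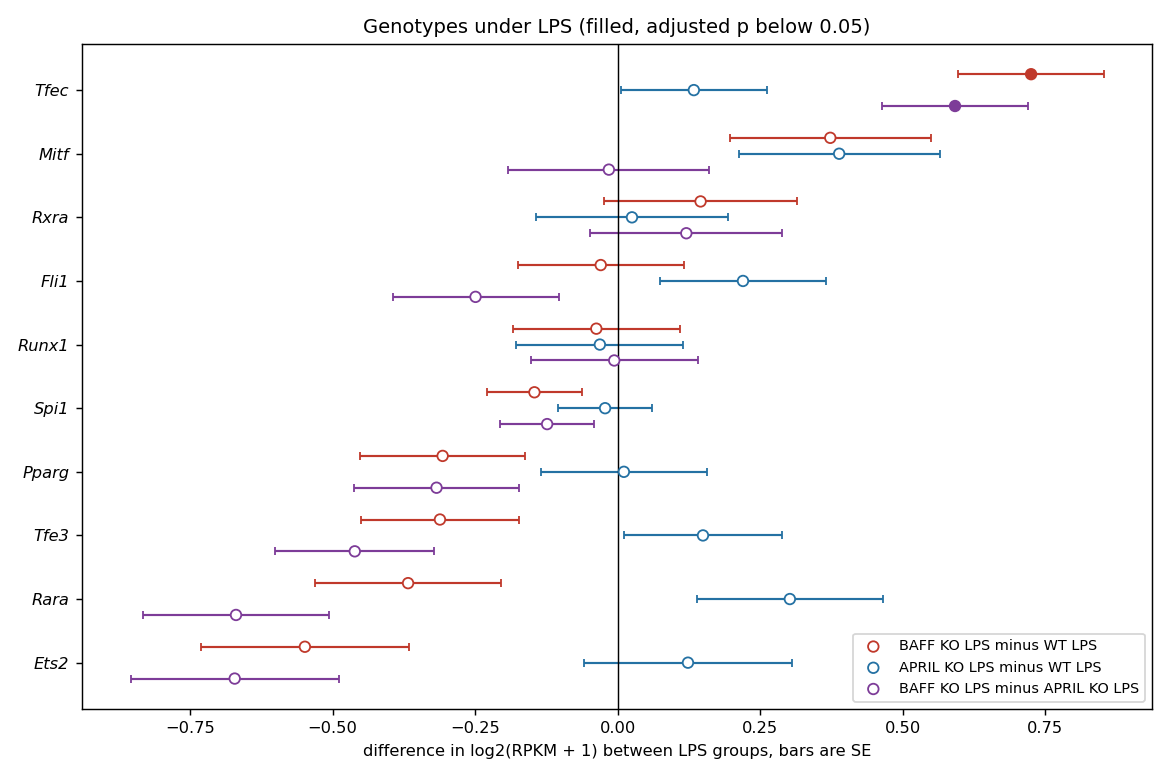
Differences in log2(RPKM + 1) between genotypes under LPS for each member, with SE bars from the fit over all genes; filled points have a limma adjusted p below 0.05. Tfec is the only member with filled points, at 0.72 for BAFF KO minus WT and 0.59 for BAFF KO minus APRIL KO.

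The target lists were counted in BAFF KO against WT under LPS as well, where 3.99% of all genes were higher and 4.35% lower. Of MiT/TFE targets 5 of 22 were higher and none lower (4 and 0 after median ratio scaling; median 0.29, against 0.02 for all genes). Clcn7 was at 174 ± 9.17 RPKM in BAFF KO and 101 ± 7.86 RPKM in WT (SD, n = 2 each; 0.78, limma adjusted p = 0.0042), while Atp6v0d2 at 0.61 (adjusted p = 0.049) was no longer called without library 14, 15, 17, 18, 20 or 21. Acp5 was higher by 0.60 (limma adjusted p = 0.042). The Acp5 call was lost in 10 alternatives and the Atp6v0d2 call in 11, the lower index columns alone among them. The Rag GTPase gene Rragc was higher by 0.63 (limma adjusted p = 0.0053), a call that ended with the lower index columns alone. The ETS genes Spic and Elf1 were higher by 0.79 and 0.76. Calls for Spic were lost without library 14, 15, 17 or 18, and for Elf1 without 15 or 18. Both were also lost with the lower index columns alone.

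PU.1 targets went 2 higher and 6 lower of 24 (1 and 6 after median ratio scaling). The scavenger receptor gene Msr1 was at 51.3 ± 0.685 RPKM in BAFF KO and 125.5 ± 7.75 RPKM in WT (SD, n = 2 each), lower by 1.27 on the log2 scale (limma adjusted p = 0.00053), and the Fc receptor gene Fcgr3 was lower by 0.98 (adjusted p = 0.0035). The NADPH oxidase gene Ncf1 was higher by 0.64 and Cybb by 0.50. The Cybb call was lost in 12 alternatives. Among them were median ratio scaling, either index column alone and leaving out library 14, 15, 17, 18, 20 or 21. PPARG targets had 3 higher and 1 lower of 15, with the cholesterol exporter gene Abcg1 at 0.70 and Olr1 at -0.89. Both calls ended without library 17 or 18, that of Abcg1 also without 15 and that of Olr1 without 14 or 15. The lower index columns alone ended both as well. Among other myeloid factors Ikzf1 was higher by 0.84, a call that ended without library 18. Cebpd was lower by 1.92, a call that ended without library 14 or 15 or with the lower index columns alone. None of the 17 nuclear receptor, 4 RUNX and 4 retinoic acid list genes tested was called there, where by the same limma test 8.34% of all genes were. Of 11 coregulators tested only Ncoa4 was called, higher by 0.83 (limma adjusted p = 0.0079). That call ended without library 14, 17 or 18 and with the lower index columns alone.

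Unstimulated knockouts were compared by size alone, with 1 library per group and no test. No member differed from WT by 1 or more on the log2 scale, where 1.81% of genes did in BAFF KO (0.483% higher, 1.33% lower) and 1.31% in APRIL KO (0.151% higher, 1.16% lower) with both columns of the knockout library beyond both WT columns. In BAFF KO the largest member difference was in Mitf, at 4.39 and 3.39 RPKM by column in BAFF KO and 6.98 and 6.67 RPKM in WT (-0.68), followed by Ets2 (-0.54) and Fli1 (-0.45). Columns were apart for 7 of the 10 members in BAFF KO, where 61% of genes were. In APRIL KO columns were apart for 7 members, where 53.2% of genes were, and Tfec was the most different, at 5.80 and 7.48 RPKM by column in APRIL KO and 11.6 and 12.4 RPKM in WT (-0.76). Rxra was higher there, at 6.49 RPKM in APRIL KO and 4.94 RPKM in WT (0.34). Tfec in the unstimulated BAFF KO library is the least settled value, since its columns read 6.94 and 13.2 RPKM on 22 and 90 reads.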

How the data were processed

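The authors deposited RPKM values per gene, and STAR and mm10 are named by the notes on processing that came with the submission (per the submitters' processing notes). The counter and annotation were not given in the sources used here. Sequencing was single-read on a NextSeq 550, per the labels' protocols, which name both a directional and a TruSeq kit, so strand is unclear. Symbols came from GENCODE M21 for 11084 of 11164 gene IDs. Reads recovered from the RPKM steps were whole within 0.01 reads for 100% of genes. The values hold 1 added read, and a count of 0 sits at a fixed floor. No member had 0 reads in any column.

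The mean of the 2 columns of a library was put on the log2(RPKM + 1) scale for genes with a group mean of at least 1 RPKM (9934 genes). The fit across these genes used limma 3.58.1 under R 4.3.3 (6 group means, 3 residual degrees of freedom, eBayes with trend, 2-sided; Benjamini-Hochberg adjusted p below 0.05 over all genes tested). A group of 1 library is assumed to vary like the others. The members and gene lists were chosen with earlier results of these data known. Named genes beyond the members are, per list, up to 2 called rises and 2 called falls, and family relatives. Alternatives were median ratio scaling, a pseudocount of 0.1, quantile normalization, leaving the filter out, columns as separate samples or singly, a replicate block, no trend and leaving out each library, plus voom weights on recovered reads, chosen after seeing the data. Same-numbered libraries did not deviate together (correlations 0.12, -0.18 and -0.10), and no pairing was used in the main fit. With 2 LPS libraries per genotype this check cannot exclude shared handling.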

Additional observations from a re-analysis of the deposited data

How the results depend on the processing

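Over 90 member results and 1640 alternatives, 1515 kept direction and side of the threshold, 50 lost the call, 28 gained it and 47 changed sign, in 22 results. Of these 47, 45 were called in neither fit. The causes were not tested. Averaged Mitf was lost with the lower index column alone (0.47, limma adjusted p = 0.051), and averaged Runx1 under both scalings. Beside the members, the averaged Rragc difference of -0.35 became 0.17 after median ratio scaling. Of 61 called results for 46 other named genes, 22 were ended by at least 1 alternative.

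Total counts of called members moved by over 1.5 times only between genotypes, while higher and lower counts also moved with LPS (WT lower 6 as deposited and 3 after median ratio scaling, APRIL KO lower 5 and 3, and averaged higher 4 and, with the lower index column, 2). Under quantile normalization the 1 member called in BAFF KO against APRIL KO was Rara, lower, in place of Tfec. BAFF KO against WT under LPS (1 member) gave 6 with the 18 columns as samples, which treats columns of a library as independent, 0 with the lower index column, and 0 to 1 without each library in turn. BAFF KO against APRIL KO (1) gave 5 with 18 columns, 4 with voom, 0 with no filter, the lower index column, the replicate block or no trend, and 0 to 1 without each library. The BAFF KO interaction (0) gave 3 with 18 columns and 1 with voom.

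For all genes, the WT response to LPS had 5992 calls as deposited and 3972 after median ratio scaling. BAFF KO against WT (828) gave 2706 with 18 columns, 229 with the lower index column and 215 to 831 without each library. APRIL KO against WT (21) gave 1361, 0 and 1 to 28 under the same alternatives, with 5 with no filter, 13 with no trend and 84 with voom. BAFF KO against APRIL KO (550) gave 1824, 164 and 96 to 560, with 341 with no trend and 837 with voom. The BAFF KO interaction (44) gave 2193, 2 and 0 to 46, with 15 with no filter, 70 under quantile normalization, 15 with the replicate block, 1 with no trend and 599 with voom. The APRIL KO interaction (0) gave 8, 1 and 0 to 1. With the replicate block, Tfec in BAFF KO against WT stayed called (adjusted p = 0.023) and against APRIL KO did not (0.053), and averaged Spi1 was lost (0.15). Rxra under LPS rests on 10 to 23 reads per library, which limits its precision.

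The sign changes with LPS were Spi1 averaged (-0.031) and in WT (-0.015) and Rara in APRIL KO (0.068) under quantile normalization, Spi1 in BAFF KO after median ratio scaling (0.431, called), and Mitf in WT (-0.047 to 0.321 without each library). Outside the members, Spib became 0.038 under quantile normalization, and Ets1 0.123 there and 0.074 after median ratio scaling. In BAFF KO against WT, Fli1 was 0.161 with the higher index column, 0.058 with voom and -0.093 to 0.033 without each library, and Runx1 0.013 with the higher index column and -0.124 to 0.048. In APRIL KO against WT, Runx1 was 0.084 with the higher index column, 0.022 with voom and -0.117 to 0.055 without each library, Rxra -0.013 with the lower index column and -0.105 to 0.155, Spi1 0.056 and Pparg -0.012 under quantile normalization, and without each library Spi1 -0.093 to 0.049, Pparg -0.124 to 0.145 and Ets2 -0.045 to 0.291. In BAFF KO against APRIL KO, Runx1 was 0.064 with the lower index column and -0.039 to 0.026 without each library, Mitf -0.186 to 0.155 and Rxra -0.0096 to 0.250. For the BAFF KO interaction, Ets2 was 0.059 with the lower index column, 0.087 with a pseudocount of 0.1, 0.085 with voom and -0.216 to 0.195 without each library, and Pparg 0.074 with the higher index column and -0.183 to 0.086. For the APRIL KO interaction, Ets2 was 0.019 and Fli1 -0.049 with the lower index column, Tfe3 -0.109 and Runx1 0.061 with the higher, and without each library Ets2 -0.203 to 0.133, Tfe3 -0.048 to 0.142, Runx1 -0.132 to 0.040 and Spi1 -0.017 to 0.125.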

Other observations

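For each member, the genes with the most similar pattern over the 9 libraries were looked up among 5930 tested genes averaging 5 RPKM or more, by Pearson's r on the log2(RPKM + 1) scale. The values are the highest of many and the libraries share the LPS contrast, so they describe and carry no test. Tfec was closest to Acp5 (r = 0.99) and Mfsd7a (0.985), and Acp5 is a listed MiT/TFE target. Mitf was closest to Cpeb4 (0.988) and Washc4 (0.987), and Tfe3 to Tubb4b (0.987) and Trim8 (0.986). Pparg was closest to the integrin genes Itgb7 (0.996) and Itgb2 (0.995), Rxra to Iars2 (0.997) and Tpcn1 (0.997), and Rara to Fam214b (0.978) and Entpd1 (0.967). Ets2 was closest to Gm13767 (0.994) and Zc3h12a (0.993), Fli1 to Naa60 (0.996) and Senp2 (0.995), and Runx1 to Ywhah (0.991) and Mak16 (0.99). Spi1, which moved least, had the loosest match among the members, with the Fc receptor chain gene Fcer1g (0.954), itself on the list of PU.1 targets, and Bst1 (0.938).

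The spread of GC content among annotated promoters was wide within single members. Pparg ran over 82.4%, 63.6% and 40.8% at its 3 starts, Mitf over 59.6%, 58.0% and 36.0%, and Runx1 over 45.6% and 67.6%. The PU box GAGGAA, found in 23.3% of mouse promoter windows, was in 1 window each of Runx1 and Pparg, and the E-box CACGTG, found in 6.02%, in 1 window each of Runx1 and Rara. No member's window held the AP-1 site TGANTCA, which is in 6.75% of windows.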
